A study of Saccharomyces cerevisiae with 26 samples.

Results

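The 300 yeast genes with the least acetylated lysine 9 of histone H3 (H3K9ac) at their start were taken from the 6008 genes of the deposited chromatin immunoprecipitation (ChIP) table. For each gene the H3K9ac signal was averaged over bins 11 to 20, the first stretch of the gene body, and over time points 3 and 4, and the 300 lowest means were kept. The signal therefore chose these genes, and all H3K9ac values below are a description without a test. Acetylated H3K9 is a mark that acetyltransferases such as Gcn5 place on nucleosomes at the starts of transcribed genes, and it is removed by deacetylases. In yeast its level at growth genes, above all those for building ribosomes, follows the metabolic cycle, in which cells of a dense, glucose-limited culture pass together through phases of high and low oxygen use. Ribosome building takes up a large part of the RNA and protein synthesis of a growing yeast cell, and its genes are switched on together in the oxidative phase.

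The cells were CEN.PK, a laboratory strain that cycles in continuous culture, either wild type or carrying TAF14[W81A]. Taf14 is a subunit shared by several transcription and chromatin complexes, and its YEATS domain, where the change lies, binds acylated histone lysines. Both genotypes were sampled at time points 1 and 2 (early and late in the oxidative phase, OX), 3 and 4 (early and late in the reductive building phase, RB) and 5 (the reductive charging phase, RC). Each of the 10 RNA groups held 2 libraries, 20 of the 26 samples in all, and H3K9ac of CEN.PK cells was read from 1 ChIP library at time point 3 and 1 at time point 4. H3K9ac in OX and RC, and in the mutant, was not analysed here.

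Whole reads of the libraries were recovered from the deposited levels, and the recovered reads summed to between 2019155 and 3743224 per library over the 5429 genes resolved in every group. The ChIP depth is unknown. The labels call A and B replicates without saying that they were separate cultures, and p-values here reflect the scatter of these libraries alone, which may be technical. RNA values are relative to the other RNA of the same library, and in these bulk samples fewer cells expressing a gene and less RNA per cell cannot be told apart. Of the 300 genes, 298 could be tested, and 2, GCN4 among them, had reads that could not be resolved.

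The chosen genes had a median start signal of 0.416 on the authors' scale, against 0.862 for all 6008 genes, whose quartiles were 0.672 and 1.117. The choice was narrow at its upper edge. CDC21 (thymidylate synthase), RPL4B (a ribosomal protein) and BUD14 (a regulator of formins in bud growth) were the last inside, at 0.4669, 0.4669 and 0.4677. CDC53 (the cullin of the SCF ubiquitin ligase), RPL9B (a ribosomal protein) and YEL045C were the first outside, at 0.4678, 0.4679 and 0.468. Most of the chosen genes sat near this edge, with 184 at 0.4 or above and 82 between 0.3 and 0.4, while 19 lay between 0.1 and 0.3 and 15 below 0.1. The libraries taken singly overlapped in part. Of the 300 genes, 245 were among the 300 lowest at time point 3, 223 at time point 4 and 176 at both.

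Along the gene, the chosen genes lay below other genes, by similar amounts in the bins that chose them and upstream, and by less further along. The median profile of the other 5708 genes at time point 3 went from 0.804 in bin 3, upstream of the start, to 0.98 in bin 11, just after it. The chosen genes went from 0.347 in bin 3, their lowest median, to 0.419 in bin 11, and then to 0.391 in bin 16, with their local peak in the same bin on a lower level. Their median mean signal at time point 3 was 0.385 over bins 1 to 10, 0.409 over bins 11 to 20, 0.512 over bins 21 to 40 and 0.669 over bins 41 to 57. The same stretches gave 0.863, 0.916, 0.831 and 0.914 in the other genes. A gap in the chosen bins follows from the choice itself, so nothing is read from its narrowing into the gene body. Bins 1 to 10 were not used for the choice but adjoin the chosen bins. At time point 4 their median was 0.357 in the chosen genes and 0.797 in the others. At time point 4 the start signal was 0.403 at the median, close to 0.409 at time point 3, and 146 of 300 genes were higher at time point 4. In the other genes the median start signal was 0.916 at time point 3 and 0.844 at time point 4, and 1864 of 5708 were higher at time point 4. Whether the authors divided the signal by H3 is not stated, so low acetylation and few nucleosomes cannot be told apart.

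**Figure D1:**
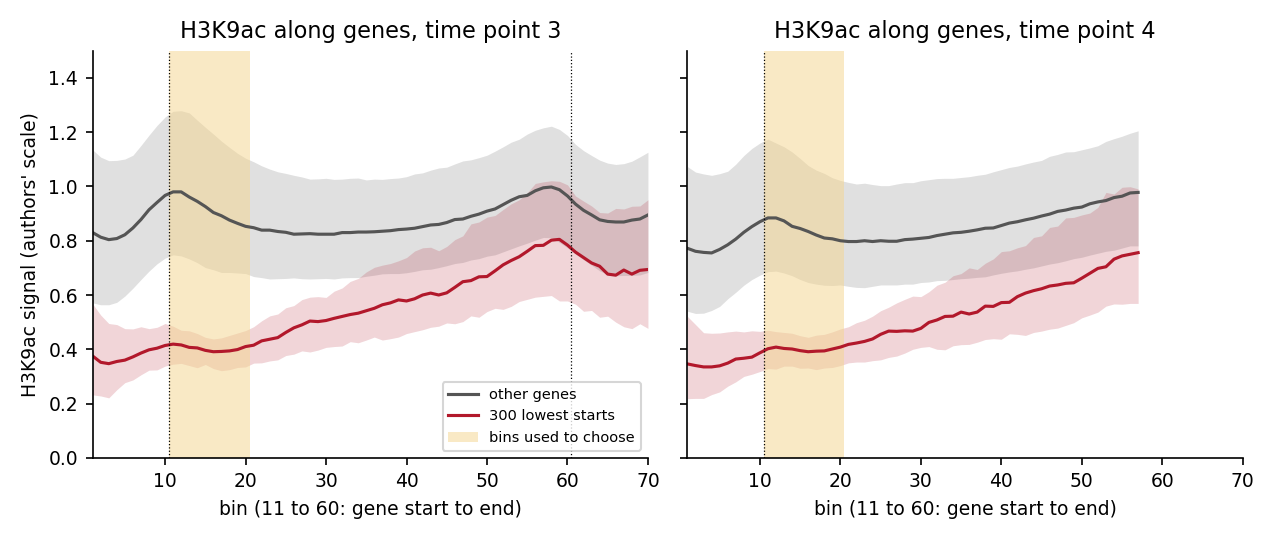
Median H3K9ac signal (authors' scale, y axis) per bin along the gene (x axis) at time point 3 (left) and time point 4 (right, bins 1 to 57), for the 300 genes with the lowest starts (red) and the other 5708 genes (grey). Bands run from the lower to the upper quartile over genes, dotted lines mark gene start and end, and yellow marks the bins that chose the genes; at time point 3 both lines have a local peak at bin 11 (0.98 and 0.419), and the red line then reaches 0.783 in bin 57.

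The lowest values of all belonged to a small group of genes. SRD1, AAD3 (an aryl-alcohol dehydrogenase homologue), ENA5 and ENA2 (sodium pumps of the plasma membrane) and YHL008C had a signal of 0 in bins 11 to 20 in both libraries. EHD3 (3-hydroxyisobutyryl-CoA hydrolase), KRS1 (the cytosolic lysyl-tRNA synthetase) and YAL067W-A followed, at no more than 0.027 in either library. In some of them the signal was higher further along. The mean over bins 41 to 57 at time point 3 was 1.908 in SRD1, 0.424 in YHL008C, 0.239 in ENA5, 0.195 in ENA2 and 0.261 in KRS1, but 0.01 in EHD3, 0.012 in YAL067W-A and 0.057 in AAD3. Whether a signal of 0 came from reads that could not be placed or from DNA that this strain lacks was not tested.

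These genes were nevertheless represented in the RNA. SRD1 had 225 and 193 scaled reads in the wild-type libraries of time point 1, 273 and 232 at time point 2, 378 and 436 at time point 3, 1212 and 1296 at time point 4, and 740 and 679 at time point 5. Every RB library was above every OX library, and SRD1 was 1.62 ± 0.10 (log2, SE) higher at time point 4 than at 3 (limma adjusted p = 4.3e-09, n = 2 libraries per group). AAD3, by contrast, stayed between 8.63 and 14.9 scaled reads in all 10 wild-type libraries, and its cycle was not called (adjusted p = 0.35). The 5 neighbours EHD3, KRS1, ENA5, ENA2 and ENA1 form the longest run of adjacent chosen genes, at chrIV:523211-538467 on sacCer3.

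Inside that run the RNA of neighbouring genes moved in opposite directions. KRS1, on the strand opposite to the others, had 3899 and 3116 scaled reads in wild type at time point 1, 530 and 611 at time point 2, 239 and 261 at time point 3, 85.7 and 97.8 at time point 4, and 284 and 310 at time point 5. EHD3, next to it, had 69.9 and 90.4, 181 and 187, 491 and 443, 870 and 802, and 297 and 318 in the same order. KRS1 was therefore highest in early OX and EHD3 in late RB, with no overlap between OX and RB libraries in either gene. The RB against OX change was -3.21 ± 0.08 for KRS1 (adjusted p = 8.5e-16) and 2.36 ± 0.08 for EHD3 (adjusted p = 2.8e-14), the highest of all chosen genes by the rule used. ENA1 had 1326 and 1254 scaled reads at time point 3 and between 116 and 245 in the other wild-type libraries. It fell by 3.19 ± 0.18 from time point 3 to 4 (log2; -3.19, adjusted p = 1e-09). ENA5 and ENA2 also peaked at time point 3, and the ENA genes are near-identical copies whose reads may be shared between them.

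By function, the 300 genes were of several kinds. Ribosome biogenesis genes, which process ribosomal RNA and assemble the subunits, made up 21 of the 40 listed (52.5%), and cytosolic ribosomal protein genes 40 of 133 (30.1%). Of 58 meiosis and sporulation genes, 12 (20.7%) were among the lowest starts, as were 4 of 11 seripauperins (anaerobically induced cell wall proteins), 2 of 11 COS genes, 2 of 6 aryl-alcohol dehydrogenases and 3 of the 7 measured genes of tandem repeats that vary between strains (ENA1, ENA2 and ENA5). None came from 21 glycolysis genes, 10 histone genes, 18 beta-oxidation genes or 23 pheromone response genes, whose median start signals were 1.245, 2.233, 1.39 and 0.967. Some lists with lower medians gave none either. These were 6 galactose genes (0.573), 6 anaerobic cell wall mannoproteins (0.653), 5 genes of mating-type loci (0.718) and 8 Y' helicases (0.766). For comparison, 300 of 6008 genes were chosen in all. Heat shock and chaperone genes contributed 1 of 22, SSB1, a ribosome-associated HSP70. The lists were written with earlier results of these data known, and no enrichment test was made.

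A reading of the names, made after the values were seen, found more of the same machinery outside these lists. It gave 47 further genes of ribosome assembly and rRNA processing, among them NOP2, SPB1, HAS1, CBF5 and GAR1, and 8 genes of the RNA polymerases and their factors, such as RPO21 (the largest subunit of RNA polymerase II) and RPC19 (shared by RNA polymerases I and III). A further 15 encode translation factors and tRNA enzymes, such as PRT1 and NIP1 of initiation factor eIF3. Another 20 are chromatin and transcription regulators, including the remodeller ATPases SNF2 and STH1 and the corepressor TUP1, 9 belong to spindle, chromosome and mitosis functions (CIN8, KAR3, SGO1), and 6 to sporulation (LDS1, LDS2, DTR1, MUM3, SPO16, MAM1).

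In wild type, most of the chosen genes had their highest RNA level in early OX. This held for all 40 ribosomal protein and all 21 biogenesis genes. Outside these and the meiosis list it held for 131 of 227 genes (57.7%). Outside all lists, fixed or named later, it held for 45 of 108. This last count leaves out the assembly, polymerase and translation genes, all highest in early OX and named after the values were seen. The deposited level, in log2 scaled reads per kb, had a median over the 300 genes of 8.0 at time point 1, 6.07 at time point 2, 4.95 at time point 3, 4.63 at time point 4 and 5.98 at time point 5. The other 5708 genes stayed between 6.39 and 6.52 at the median. Of the 300 genes, 195 (65.0%) had their highest level at time point 1, against 38.3% of the other genes, and 133 (44.3%) had their lowest at time point 4, against 26.6% of the other genes. The low start signal was thus read at the time points at which most of these RNAs were scarce. Called over the wild-type cycle were 272 of the 298 tested (91.3%), against 93.7% of all 5970 genes tested.

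Averaged over the cycle, the chosen genes ranged from scarce to abundant RNA. The mean wild-type level had a median of 5.8 over the 300 genes and 6.42 over the others. The levels spread to both ends, since 68 of the 300 (22.7%) were among the lowest 10% of all genes and 49 (16.3%) among the highest 10%, against 9.34% and 9.67% of the other genes. Of the 49, 39 were ribosomal protein genes. Across all 6008 genes the start signal and the wild-type level had Pearson r of -0.01 at time point 1, 0.14 at time point 2, 0.35 at time point 3, 0.4 at time point 4 and 0.28 at time point 5. These coefficients run across genes, which are not independent replicates, and share the same 2 ChIP libraries. The relation was closer at the time points at which the ChIP was done.

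GCN4, the activator of amino acid synthesis genes, had the highest mean level of the 300. Its wild-type levels were 12.77, 12.54, 12.41, 12.76 and 13.01 at time points 1 to 5, a far smaller range than that of the ribosomal protein genes, and its start signal was 0.416 at time point 3 and 0.307 at time point 4. The next 7 by level were all ribosomal protein genes. RPS31, which encodes a ubiquitin fused to a ribosomal protein, had 14.24, 13.78, 11.93, 11.42 and 11.95.

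**Figure D2:**
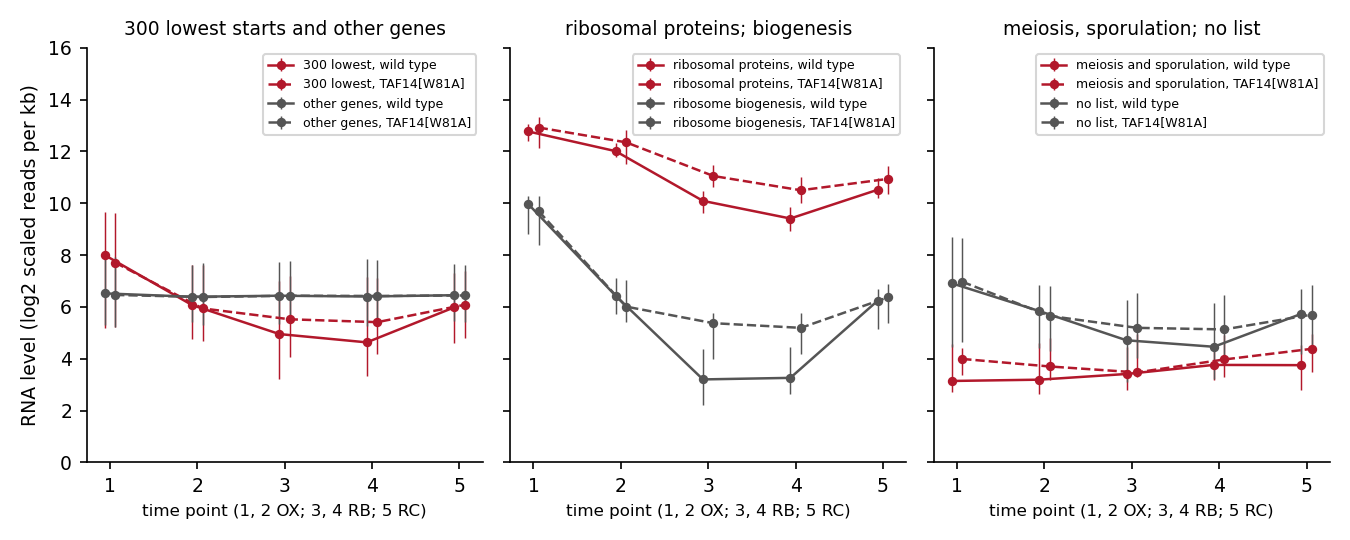
Deposited RNA level (log2 scaled reads per kb, y axis) at the 5 time points (x axis) in wild type (solid) and TAF14[W81A] (dashed); points are medians over genes and bars run from the lower to the upper quartile. The 300 lowest starts fall from 8.0 to 4.63 between time points 1 and 4 in wild type while the other genes stay level, and the mutant medians of the ribosomal protein and biogenesis genes lie above wild type at time points 3 and 4.

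Wild-type RB against OX compared the mean of time points 3 and 4 with that of 1 and 2. The RNA of 199 of the 298 genes fell (66.8%; 41.7% of all genes tested) and that of 59 rose (19.8%; 43.2% of all). The median log2 change was -1.68, against 0.02 over all genes tested. Without time point 1, at which the RNA of most of these genes was highest, the median was -1.05. The share that fell was above the share over all genes, and the share that rose was below it.

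Ribosome biogenesis genes changed most. All 21 fell, with a median of -4.80. PWP2, a subunit of the small-subunit processome, had 2692 and 2193 scaled reads in wild type at time point 1, 304 and 347 at time point 2, 22.2 and 18.9 at time point 3, 22.8 and 19.2 at time point 4, and 247 and 226 at time point 5. The RB libraries lay far below all others, and the change was -5.36 ± 0.10 (adjusted p = 8.3e-17). SSF1, a large-subunit assembly factor, fell by 5.33 ± 0.11 on the log2 scale (-5.33, adjusted p = 1.7e-16), and UTP13 of the small-subunit processome by the same amount. RPA49, a subunit of RNA polymerase I, went from 4315 and 3416 at time point 1 to 24.2 and 38.7 at time point 3, a change of -5.27 ± 0.12 for RB against OX (adjusted p = 2e-16). DRS1, an RNA helicase of large-subunit assembly, had -4.91 ± 0.12 and TRM11, a tRNA methyltransferase subunit, -4.96 ± 0.16. Without time point 1, at which they were highest, DRS1 had -3.25 and TRM11 -2.88, both still called. All 47 assembly genes named after the values were seen fell as well, with a median of -4.00, as did the 8 polymerase genes (median -3.52) and the 15 of translation and tRNA (median -2.80).

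All 40 ribosomal protein genes fell too, by less, with a median of -2.62. RPL26B, whose start signal of 0.248 and 0.263 at time points 3 and 4 was the lowest among them by mean, had wild-type levels of 13.04, 12.31, 9.87, 8.96 and 10.62 at time points 1 to 5. Its change was -3.26 ± 0.06 (adjusted p = 4.5e-15). RPS12 had 13.78, 12.92, 10.91, 10.25 and 11.65, and a change of -2.77 ± 0.06. Both were highest in early OX and lowest in late RB, as were 39 of the 40 at their lowest. Several ribosomal protein genes come as near-identical pairs, such as RPL8A and RPL8B, so reads could be split between copies. Ribosomal protein and biogenesis genes outside the 300 had like changes. The 88 other ribosomal protein genes tested all fell, with a median of -2.57, and the 19 other biogenesis genes all fell, with a median of -3.75. The RNA change of these families in RB was therefore not particular to the lowest starts, and the start signal of the other members, 0.615 and 0.55 at the median at time point 3, was also below the 0.916 of all genes outside the 300.

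Not all low starts fell in RB. PSK1, a PAS-domain kinase that governs carbohydrate storage, had 119 and 216 scaled reads at time point 1, 884 and 782 at time point 2, 1484 and 1478 at time point 3, 1957 and 1953 at time point 4, and 1175 and 1258 at time point 5. It rose by 2.22 ± 0.13 (adjusted p = 4e-11), and by 1.03 without time point 1. HXT3, a low-affinity glucose transporter, rose by 1.95 ± 0.11 (adjusted p = 1e-10). ADR1, an activator of genes for fatty acid and ethanol use, rose by 1.88 ± 0.13 (adjusted p = 4.4e-10), or by 1.10 without time point 1. COS8 rose by 1.36 ± 0.15 from a low level, from 24.1 and 16.9 scaled reads at time point 1 to 80.3 and 75.7 at time point 4. In each of these genes no RB library overlapped an OX library.

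Of the 12 meiosis and sporulation genes, 5 rose and 3 fell (median 0.23). Their RNA was scarce, and 8 of 12 were among the lowest 10% of all genes by mean level. SPO75, needed for spore formation, rose by 1.00 ± 0.07 (adjusted p = 1.1e-09), whereas CST9, a SUMO ligase of meiotic chromosomes, had -0.12 ± 0.08 (adjusted p = 0.2). Of the 46 other genes of that list, 32 rose (median 0.83). Among the chromatin and transcription regulators, 6 of 19 tested rose and 10 fell (median -0.12). Outside the ribosomal protein, biogenesis and meiosis lists, 135 of 225 genes tested fell and 54 rose, with a median of -0.76. Outside all lists, fixed or named later, 107 genes were tested, of which 48 fell and 37 rose, with a median of -0.08. This last group leaves out the assembly, polymerase and translation genes, which all fell and were named after the values were seen. Its median near 0 follows in part from that choice, so nothing is read from it about low starts outside the known families. For comparison with these groups, 41.7% of all genes tested fell and 43.2% rose.

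**Figure D3:**
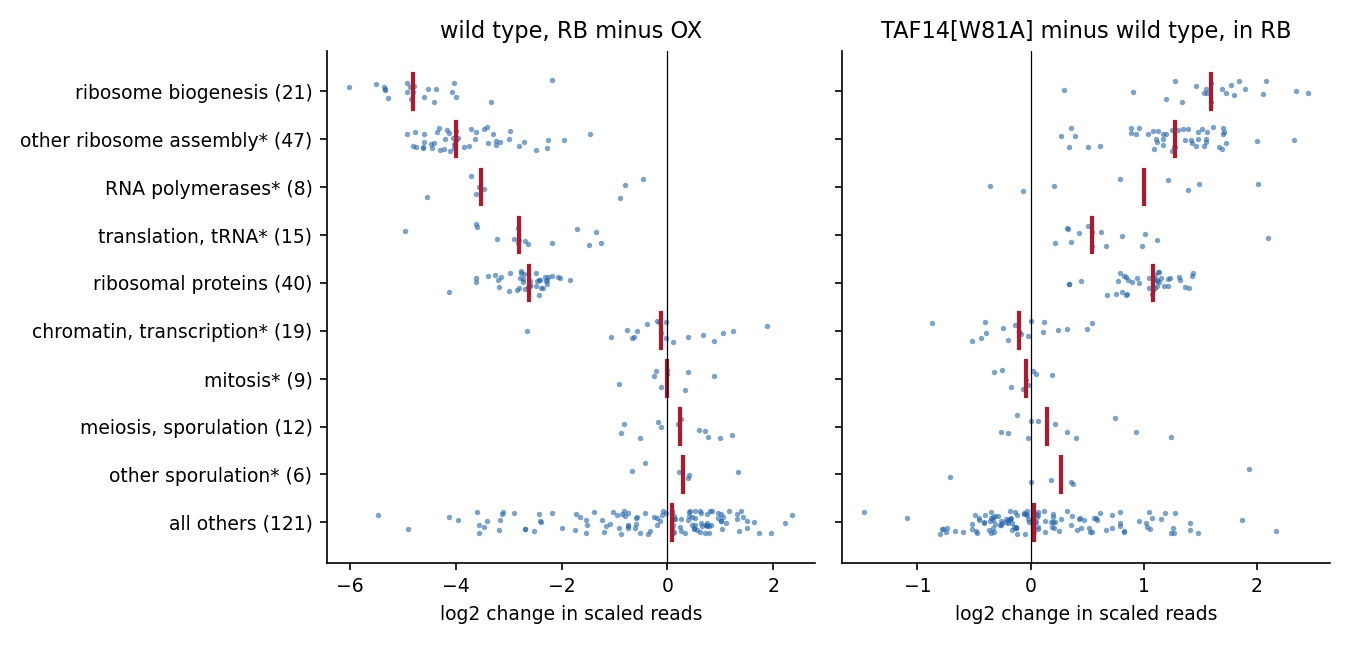
Log2 change in scaled reads (x axis) of each tested gene among the 300 (blue points), by group (y axis, number tested in parentheses), for wild-type RB against OX (left) and TAF14[W81A] against wild type in RB (right). Red bars are group medians and asterisks mark groups named after the values were seen; ribosome biogenesis (median -4.80) and ribosomal protein genes (-2.62) lie left of 0 in the left plot and right of 0 (1.60 and 1.08) in the right plot.

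Within RB, time point 4 was compared with 3. Of the 298 genes, 88 fell (29.5%; 20.8% of all genes tested) and 42 rose (14.1%; 22.8% of all), with a median of -0.04. Ribosomal protein genes accounted for 38 of the 88, with a median of -0.66, and RPS26B had the largest fall of those named, -1.30 ± 0.11 (adjusted p = 2.9e-07). Of the 21 biogenesis genes, 3 rose and 3 fell, with a median of 0.16, and 6 had their lowest level at time point 4 against 15 at time point 3. MUM3, a gene for spore wall formation, had 95 and 71.2 scaled reads at time point 3 and 367 and 278 at time point 4. It rose by 1.94 ± 0.19 (adjusted p = 8.1e-07), the highest change among the chosen genes named by the rule. BDF2, a bromodomain protein that binds acetylated histones, rose by 1.52 ± 0.12, IRA2, an inhibitor of Ras, by 0.98 ± 0.10 and SPS2, a spore wall protein, by 0.91 ± 0.19. YDR034W-B rose by 1.19 ± 0.30 (adjusted p = 0.0046), but without the first wild-type library of time point 4 the value was 0.94 (adjusted p = 0.063). At the other end YHL008C fell from 203 and 199 scaled reads to 72.7 and 86.3 (-1.33 ± 0.23, adjusted p = 0.00018).

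RC against RB used the same RB libraries as the comparison with OX, so the measurements are not independent. RNA of 188 of the 298 genes rose (63.1%; 33.0% of all genes tested) and that of 34 fell (11.4%; 27.1% of all), with a median of 0.55 against 0.03 over all genes. All 21 biogenesis genes rose, with a median of 2.72, and 39 of 40 ribosomal protein genes rose, with a median of 0.86. SSF1, at 255 and 273 scaled reads in RC after 21.2 and 15.3 in early RB, rose by 3.72 ± 0.14 (adjusted p = 1.4e-12). MAK16, a large-subunit assembly factor, rose by 3.17 ± 0.12, and SYO1, a chaperone that brings ribosomal proteins into the nucleus, by 3.20 ± 0.13. In RC these genes were well below their level of early OX, since SSF1 had 2593 and 2308 scaled reads at time point 1. Among genes past 50 scaled reads and without overlap of libraries, the largest falls included these. CDC21 had -1.46 ± 0.14, GAS3 (a cell wall glucanosyltransferase homologue) -1.27 ± 0.09, TOS4 (a forkhead-associated gene regulator of the start of the cell cycle) -1.14 ± 0.14 and ATF1 (an alcohol acetyltransferase) -0.84 ± 0.08.

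**Figure D4:**
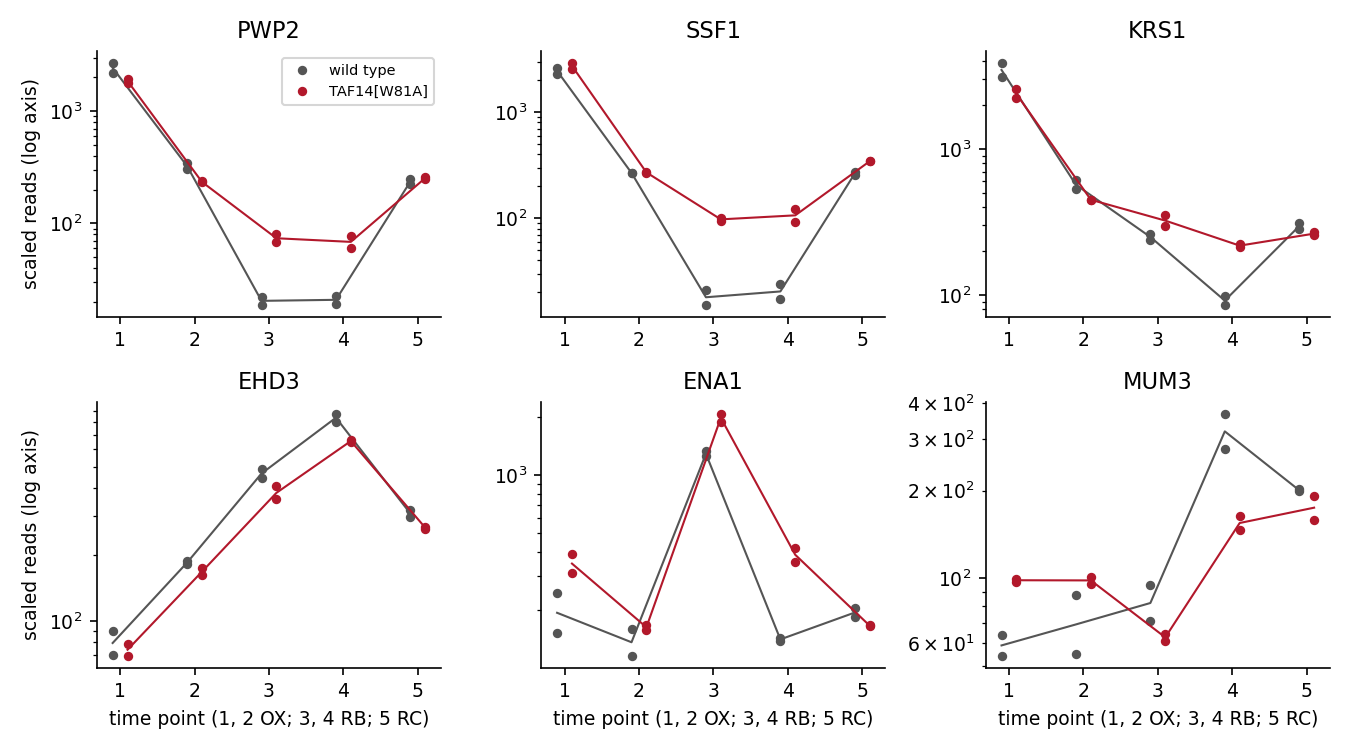
Scaled reads (y axis, log scale, range set per gene) of 6 genes among the 300 at the 5 time points (x axis); points are libraries (2 per group), lines join geometric means, in wild type (grey) and TAF14[W81A] (red). PWP2, SSF1 and KRS1 are higher in the mutant than in wild type at time point 4, EHD3 and MUM3 are lower there, and ENA1 peaks at time point 3 in both genotypes.

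In TAF14[W81A] most of the low starts again had their highest RNA in early OX, and the median fall into RB was smaller. Over the mutant cycle 268 of 298 were called (89.9%; 91.6% of all genes tested), and 205 of the 300 (68.3%) had their highest level at time point 1, against 36.6% of the other genes. Mutant RB against OX gave 200 falls (67.1%; 40.7% of all) and 54 rises (18.1%; 41.5% of all), with a median of -1.15. Averaged over the 5 time points, 171 of 298 genes were higher in the mutant (57.4%; 38.0% of all) and 52 lower (17.4%; 31.9% of all), with a median of 0.22.

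The difference between the genotypes was largest in RB. By deposited level, 194 of the 300 genes (64.7%) were also higher in the mutant at time point 5, against 51.4% of the other genes. Of the 40 ribosomal protein genes, 37 were higher there. The median difference of deposited levels, mutant minus wild type, was 0.02, -0.06, 0.52, 0.55 and 0.10 at time points 1 to 5 over the 300 genes, and between 0 and 0.02 over the others. In RB, a contrast added after the data were seen, 172 of 298 genes were higher in the mutant (57.7%; 31.7% of all) and 42 lower (14.1%; 26.4% of all), with a median of 0.53 against 0.02 over all genes. All 21 biogenesis genes (median 1.60) and all 40 ribosomal protein genes (median 1.08) were higher. RPA49 had 167 and 171 scaled reads in the mutant at time point 3 and 202 and 217 at time point 4, where wild type had 24.2 and 38.7, and 32.5 and 41.2. These libraries did not overlap, and the difference in RB was 2.45 ± 0.12 (adjusted p = 8.4e-11). SSF1 was higher by 2.35 ± 0.11, SYO1 by 2.33 ± 0.10, TRM11 by 2.10 ± 0.16, MRT4 (a large-subunit assembly factor) by 2.08 ± 0.07 and IMP3 (of the small-subunit processome) by 2.06 ± 0.17. Biogenesis and ribosomal protein genes outside the 300 had medians of 1.24 and 0.96, so this too was not particular to the lowest starts.

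Whether the RB against OX change itself differed between genotypes was tested as an interaction, also added after the data were seen. It shares its RB libraries with the comparison in RB. The change was more positive in the mutant for 164 of 298 genes (55.0%; 26.6% of all genes tested) and more negative for 32 (10.7%; 20.7% of all), with a median of 0.57 against 0.01. Over all genes, whose typical absolute RB against OX change was 0.735 in wild type and 0.60 in the mutant, the amplitude was also smaller. Biogenesis genes had a median difference of 1.89 (21 of 21 called) and ribosomal protein genes 0.88 (40 of 40). No meiosis and sporulation gene of the 12 was more positive and 3 were more negative.

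The largest interaction outside ribosome assembly was that of CYS3, cystathionine gamma-lyase of cysteine synthesis. In wild type CYS3 had 2236 and 1743, 663 and 733, 210 and 223, 188 and 202, and 347 and 341 scaled reads at time points 1 to 5, and in the mutant 1122 and 988, 395 and 401, 478 and 563, 566 and 716, and 303 and 313. It was lower in the mutant at each OX time point and higher at each RB time point, with no overlap of libraries, and its RB against OX change was 2.34 ± 0.12 more positive (adjusted p = 1.6e-09). MUM3 showed the opposite. Its mutant libraries had 61.1 and 64.3 scaled reads at time point 3 and 163 and 147 at time point 4, and its RB against OX change was 1.33 ± 0.14 in wild type, 0.00 ± 0.14 in the mutant and -1.33 ± 0.19 as the difference (adjusted p = 3.5e-05). BDF2 (-0.76 ± 0.12) and SRD1 (-0.83 ± 0.10) also rose less in the mutant.

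A smaller group was shifted at all time points. LDS1, a gene of spore wall assembly whose product sits on lipid droplets, had between 23.0 and 41.6 scaled reads in the 10 wild-type libraries and between 88.5 and 126 in the 10 mutant libraries. The ranges did not overlap, and the mean difference was 1.80 ± 0.07 (adjusted p = 5.7e-12). SPS22, a spore wall gene, was higher by 1.47 ± 0.09 (adjusted p = 9.7e-10). Of the 12 meiosis and sporulation genes, 7 (58.3%) were higher over the cycle and 1 lower, close to the 57.4% higher among all the chosen genes and to 26 of 46 (56.5%) for the other genes of that list. Of the genes lower in the mutant over the cycle, 3 were ribosomal protein genes. SNF2, the ATPase of the SWI/SNF remodeller, of which Taf14 is a subunit, had between 534 and 861 scaled reads in wild type and between 311 and 596 in the mutant, and was lower at each time point (-0.63 ± 0.03, adjusted p = 1.3e-10). ACC1, acetyl-CoA carboxylase of fatty acid synthesis, had -0.58 ± 0.04 (adjusted p = 4e-09), HXT1, a glucose transporter, -0.57 ± 0.07 and SNT1, a subunit of the Set3 deacetylase complex, -0.50 ± 0.03. PAU8, a seripauperin, had -0.55 ± 0.12.

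The authors' deposited table of mutant over wild type tests was read at an adjusted p-value under 0.05. In the authors' deposited table, 147 of 290 chosen genes were higher in the mutant at time point 3 (50.7%; 18.4% of all genes with a p-value) and 19 lower (6.55%; 15.1% of all). At time point 4 the authors' deposited table had 137 of 288 higher (47.6%; 18.8% of all) and 28 lower (9.72%; 19.6% of all). At time point 1 the authors' deposited table had 11 of 269 higher (4.09%; 4.97% of all) and 25 lower (9.29%; 9.23% of all), shares near those over all genes. At time point 2 the authors' deposited table had 45 of 293 higher (15.4%; 18.9% of all) and 67 lower (22.9%; 19.7% of all), and at time point 5 it had 59 of 278 higher (21.2%; 12.0% of all) and 20 lower (7.19%; 15.4% of all).

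The share of the chosen genes near chromosome ends was small, but not below that of the other genes. Chosen genes without a RefSeq position were not counted, and whether they lie near chromosome ends was not tested. Among the 275 with a RefSeq position, 13 (4.73%; exact 95% binomial interval 2.54 to 7.95%) lay within 20 kb of the outermost annotated gene of their chromosome, against 3.67% of the other genes. Within 10 kb the shares were 3.64% (1.76 to 6.59%) and 1.74%. These intervals take genes as independent, but some chosen genes near the ends adjoin each other, so the intervals may be too narrow. Low starts did occur side by side, with 32 runs of adjacent chosen genes, of which 6 had 3 or more. Adjacency was counted among measured genes with a RefSeq position, so other genes may lie between the members of a run. After the EHD3 to ENA1 run come LDS1, PSK1 and TPD3 (the scaffold subunit of protein phosphatase 2A) at chrI:118564-126786. PAU8, YAL067W-A and YAL064W-B form another run by this count, spread over chrI:1807-12426. In the run of LDS1, the RB against OX change was 0.21 ± 0.11 (adjusted p = 0.079) for LDS1, 2.22 for PSK1 and 0.85 ± 0.05 (adjusted p = 2.2e-11) for TPD3. Of the 77 genes with a divergent neighbour starting within 600 bases, 20 (26.0%) had a neighbour that was itself among the 300, against 3.65% of the other genes. The starts of such neighbours had a median signal of 0.597, against 0.871 for divergent neighbours of other genes. Such pairs share their upstream region, and starts lie close together, so their signals are not separate measurements. The median length of the chosen genes was 1380 bases and that of the others 1230, and 84.0% and 83.8% had a standard name.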

How the data were processed

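Members, lists and naming rule were chosen with earlier results of these data known. The deposited RNA table gives 1 log2 level per genotype and time point and the authors' adjusted p-values of mutant over wild type. The deposited ChIP table gives an H3K9ac signal per gene and bin, and its scale is not stated. BWA, DESeq2, MACS2, deepTools and the build sacCer3 are listed, without versions, per the submitters' processing notes. From the ChIP data, 281351 repeated and 344 damaged lines were dropped. From neighbouring genes, bins 1 to 10 were checked to cover 200 bases before the start and bins 11 to 60 the gene, and time point 4 is complete for bins 1 to 57 only.

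Each deposited level, linear and multiplied by gene length, equals whole reads of 2 libraries, each times its step, added up, within 1.15 times the last decimal's rounding. Whole reads came out for 5438 of 6008 genes at the RefSeq (R64) length and for 548 at a searched length, against 1.06% with lengths shuffled. Columns carry no replicate letter. Groups with several solutions (in 70 of the 300 members) entered as their mean, with fewer degrees of freedom. Only solutions with at least 1 read in each library were accepted, so the recovered reads cannot show a library without reads of a gene.

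The deposited scaling was kept, and limma 3.58.1 with trend (R 4.3.3) was run on log2(scaled reads + 1) of 20 libraries and 5970 genes, without a filter. Genes were called at a two-sided Benjamini-Hochberg adjusted p under 0.05 over all genes tested, and changes are given ± SE. "Rose" and "fell" denote calls. The fit was tested on simulated data. The named genes were the 8 members with the least signal and the 8 with the highest level, those at the limit, the 6 highest and 6 lowest changes per comparison among called members with at least 50 scaled reads and no overlap, 2 per list and the 3 longest runs. For mutant against wild type over the cycle, the same sign at all 5 time points was required in place of no overlap. For the interaction, overlap was not checked. Alternatives were pseudocounts of 0.5 and 5, a minimum of 10 scaled reads, upper-quartile scaling, fits without each library or time point 1, and other choices of members. Intervals of shares cover counting error only. H3K9 crotonylation and H3 were not analysed here.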

Additional observations from a re-analysis of the deposited data

Results flagged for a closer look

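The RB against OX change differed between TAF14[W81A] and wild type, by limma's interaction test, for many of the genes with the lowest start signal. It was more positive in the mutant for 55.0% of those tested (26.6% of all genes) and more negative for 10.7% (20.7% of all genes). Among the genes named for it, the difference (log2, mutant minus wild type) was 2.40 for NOP1 (the methylase of box C/D snoRNPs), 2.35 for NSR1 (nucleolin), 2.34 for CYS3, 2.31 for IMP3, 2.27 for SSF1 and 2.26 for RPA49. In NOP1 and NSR1 the wild-type libraries of time point 1 could not be resolved, and only their mean entered. In the other direction the difference was -1.33 for MUM3, -0.83 for SRD1, -0.82 for COS8, -0.76 for BDF2, -0.72 for COS5 and -0.68 for SPS2.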

How the results depend on the processing

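Under all alternatives run, the shares of members called in the 7 RNA comparisons (WT cycle, mutant cycle, RB against OX, time point 4 against 3, RC against RB, and mutant against wild type over the cycle and in RB) and in the interaction kept within 1.5 times their reported value. Leaving out 1 library at a time, the share that fell in RB ranged from 64.4 to 67.4%, and the share higher in the mutant in RB from 55.4 to 59.1%. The median level of members, 5.8 as reported, was 5.45 for the 150 lowest starts and 6.73 when members were ranked over all bins (1 to 57). Ranked that way, 8.82% lay within 20 kb of the outermost gene, against 4.73% as reported; the cause was not tested. No named gene changed sign. SPS2 lost its interaction call without time point 1 (-0.51, adjusted p = 0.062). H3K9ac has 1 library per time point and so no replicate error. No paired analysis was possible because the deposited columns carry no replicate letter.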
